A study of Homo sapiens with 8 samples.

Results

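The interaction of HNF4G with BET inhibition was examined in 22Rv1 cells, a human prostate cancer line that is castration resistant. It is the change with the inhibitor in cells given HNF4G minus the same change in control cells, gene by gene. All 8 of the 8 RNA-seq libraries entered it. Tested were the 17876 of 57603 identifiers whose mean reached 10 normalized counts, whichever way they moved.

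The 4 groups held 2 libraries each. HNF4G-ABBV-075 and HNF4G-DMSO were 22Rv1 cells that carried an HNF4G transgene, and GFP-ABBV-075 and GFP-DMSO were 22Rv1 cells that carried a GFP transgene. As the study describes, the murine stem cell virus promoter, which ABBV-075 does not repress, drove both transgenes. Cells of both lines received 25 nM ABBV-075, an inhibitor of BET bromodomains also named mivebresib, or its solvent DMSO, for 24 hours. Cells given ABBV-075 are called treated below, and cells given DMSO untreated. Whether the libraries of a group were grown as separate cultures is not stated in the labels, and the p-values cover no more than the spread between them. Other lasting differences that the lines may have acquired cannot be told apart from an effect of the transgene.

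BET proteins bind acetylated histones and help to assemble the transcription machinery at promoters and enhancers, and BET inhibitors displace them from chromatin. HNF4G is a nuclear receptor transcription factor of intestine and other endodermal organs. A subset of castration-resistant prostate cancers, with 22Rv1 among their models, transcribes genes of gut and liver that this factor controls. The comparison asks which genes lose less, or more, to the inhibitor when HNF4G comes from a promoter of its own.

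The libraries held 31508275 to 40262678 reads, and a normalized count is the number of reads of a gene over a size factor of the library. The mean GC content of the transcripts, weighted by their reads, was 46.3% in the first HNF4G-ABBV-075 library and in the second HNF4G-DMSO library, and 47.4 to 47.9% in the other 6 libraries. The interaction is therefore also given without these libraries, which leaves 1 library in each HNF4G group, assumed to vary like the GFP libraries. Over genes, the log2 difference between the libraries of a group had an SD of 0.53 in HNF4G-ABBV-075 and 0.42 in HNF4G-DMSO. The SD was 0.33 in GFP-ABBV-075 and 0.31 in GFP-DMSO, so the assumption may not hold. The kept HNF4G libraries still differed in GC content, at 47.9% with ABBV-075 and 47.4% with DMSO. Calls of that fit have no replication in HNF4G cells and are given as description only. All 15 listed genes of prostate luminal identity passed the filter. The 12 immune and endothelial markers summed to 31.1 to 56.2 normalized counts in any library, and 4 of them were at 0 in all libraries.

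The HNF4G transcript itself differed most between the lines in its response. HNF4G (chromosome 8, 75407914 to 75566834 of GRCh38) had 43972 and 34116 normalized counts in treated HNF4G cells, 10110 and 12104 in untreated HNF4G cells, 206 and 213 in treated GFP cells, and 1088 and 993 in untreated GFP cells. HNF4G cells averaged 39044 ± 6969 with ABBV-075 and 11107 ± 1410.4 with DMSO, and GFP cells 209.7 ± 5.21 with ABBV-075 and 1040.4 ± 67.0 with DMSO (SD, n = 2 each). With ABBV-075 it rose by a log2 change of 1.81 ± 0.15 in HNF4G cells and fell in GFP cells, at -2.30 ± 0.15 (SE, as below). The excess of HNF4G mRNA was thus larger under the inhibitor, 186-fold over GFP cells under ABBV-075 and 10.7-fold under DMSO. These values are of RNA, and the study measured the protein separately by immunoblot. Counts per gene cannot separate transgene from endogenous reads.

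Over all genes the inhibitor moved many of the same genes in both lines. Limma called 2304 genes higher (12.9%) and 3271 lower (18.3%) with ABBV-075 in HNF4G cells, and 2534 higher (14.2%) and 3432 lower (19.2%) in GFP cells. Counts of list members that fell or rose, given below, are limma's calls and are to be set beside these shares. The comparisons of HNF4G and of GFP cells share no library. They had 2828 lower genes in common, 86.5% of those in HNF4G cells and 82.4% of those in GFP cells, and 1866 higher genes, 81.0% and 73.6% of the same lists. Across the 17876 genes the changes in both lines had a Pearson's r of 0.90 and a Spearman's rho of 0.87, given as a description, since genes are not independent replicates. Called in opposite directions were 3 genes: HNF4G, an identifier without a gene symbol, and CRYM, which encodes a thyroid hormone binding protein. CRYM, picked out after its values were seen, had 62.1 and 47.3 normalized counts in treated HNF4G cells, 26.2 and 25.9 in untreated HNF4G cells, 20.9 and 17.3 in treated GFP cells, and 35.8 and 35.4 in untreated GFP cells, with an interaction of 1.90 ± 0.34 (adjusted p = 0.568).

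**Figure D1:**
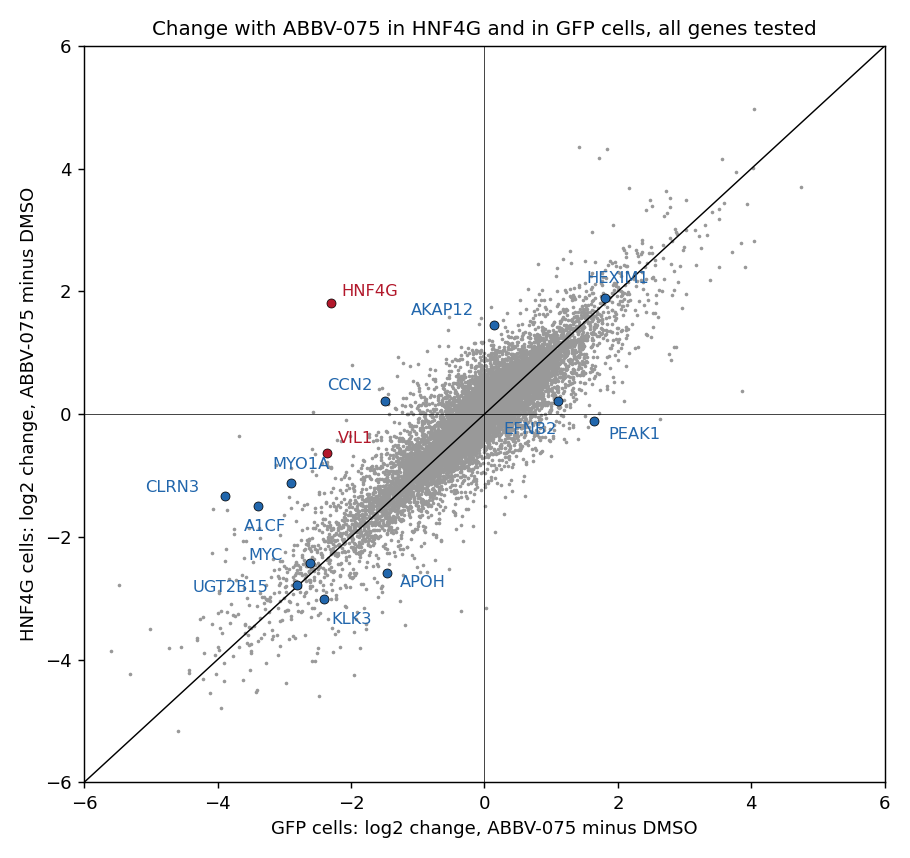
Log2 change with ABBV-075 in HNF4G cells (vertical axis) against the log2 change in GFP cells (horizontal axis), 1 grey point for each of the 17876 genes tested. The diagonal marks equal changes. HNF4G and VIL1 (red) were called for the interaction, and genes marked in blue are named in the text without that call. Most points lie along the diagonal, and HNF4G stands alone far above it.

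The interaction itself was called for few genes. With limma and Benjamini-Hochberg adjustment over 17876 genes, 2 genes had a positive interaction (0.0112%), HNF4G and VIL1, and 0 a negative one (0%). At an unadjusted p under 0.05, 254 were positive (1.42%) and 198 negative (1.11%). The quasi-likelihood test of edgeR on the recovered reads called the same 2 genes (0.0112%) and 0 negative (0%), with 192 negative at an unadjusted p under 0.05. DESeq2 called 10 positive (0.0559%) and 0 negative (0%), with 38 negative at an unadjusted p under 0.05. Without both libraries of low GC content, limma called 320 positive and 44 negative genes, and corrected for the GC content and the length of transcripts it called 16 and 2. The fitted interaction was positive for 9459 of the 17876 genes and negative for 8417. Without both libraries of low GC content these numbered 8674 and 9202. The median interaction was 0.01 on the log2 scale, with a median SE of 0.24 and a median half-width of the 95% interval of 0.56. For 11525 genes (64.5%) the 95% interval lay within a log2 value of 1 on either side of 0. At means of 10 to 50 normalized counts the median half-width was 1.19, so that an interaction of more than a doubling was often not detectable there. These half-widths are unadjusted, and interactions larger than them also went uncalled by limma, such as 1.78 for MYO1A below.

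VIL1 (chromosome 2, 218419121 to 218453295 of GRCh38) encodes villin, which bundles actin in the microvilli of the intestinal brush border. It had 2747 and 2874 normalized counts in treated HNF4G cells, 4511 and 4261 in untreated HNF4G cells, 589 and 593 in treated GFP cells, and 3181 and 2883 in untreated GFP cells. Treated HNF4G cells were close to untreated GFP cells, and treated GFP cells were far below every other library. VIL1 kept 64.1% of its DMSO level in HNF4G cells and 19.5% in GFP cells, log2 changes of -0.64 ± 0.10 and -2.35 ± 0.10. The interaction was 1.71 ± 0.14 (95% interval 1.39 to 2.04, limma adjusted p = 0.0179). Its size held at 1.64 to 1.78 under all 24 alternatives, at adjusted p-values from 1.9e-10 to 0.370, and it was called in 15 of them. The call was lost on leaving out any 1 of the GFP or HNF4G-DMSO libraries and without the intensity trend. Without both libraries of low GC content the interaction was 1.70.

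MYO1A (chromosome 12, 57028517 to 57051198), a myosin motor that ties the actin bundle of microvilli to their membrane, fell in both lines. Its values were 1205 and 1078 in treated and 2363 and 2635 in untreated HNF4G cells, against 120.1 and 98.0 in treated and 803 and 836 in untreated GFP cells. The libraries of each group lay close together and no groups overlapped. It kept 45.7% of its DMSO level in HNF4G cells and 13.3% in GFP cells. The interaction was 1.78 ± 0.19 (95% interval 1.33 to 2.22), which limma did not call (adjusted p = 0.0777) and DESeq2 did.

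CCN2 (chromosome 6, 131948176 to 131951372), a secreted matrix protein and a target of the YAP and TEAD regulators, fell with ABBV-075 only in GFP cells by limma's calls. Its values were 2197 and 2065 in treated and 2041 and 1649 in untreated HNF4G cells, against 118 and 115 in treated and 336 and 326 in untreated GFP cells. The log2 change with ABBV-075 was 0.22 ± 0.13 in HNF4G cells, not called, and -1.50 ± 0.13 in GFP cells, where CCN2 fell. All HNF4G libraries exceeded all GFP libraries, and treated HNF4G cells held 644% of the GFP-DMSO level. The interaction was 1.71 ± 0.19 (95% interval 1.29 to 2.14), not called by limma (adjusted p = 0.0777) but called by DESeq2. It was 1.51 without both libraries of low GC content.

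A1CF (chromosome 10, 50799409 to 50885675), an RNA-binding cofactor of apolipoprotein B mRNA editing, fell in both lines. It had 783 and 604 normalized counts in treated HNF4G cells, 1773 and 2133 in untreated HNF4G cells, 108 and 122 in treated GFP cells, and 1173 and 1262 in untreated GFP cells. Treated cells stayed below untreated cells in each line, by less in HNF4G cells, where 35.5% of the DMSO level was left, than in GFP cells, where 9.46% was left. The interaction of 1.89 ± 0.23 (95% interval 1.37 to 2.42) was not called by limma (adjusted p = 0.13) and was called by DESeq2.

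DHRS3 (chromosome 1, 12567910 to 12618210) encodes a reductase that returns retinaldehyde to retinol. Its values were 519 and 644 in treated and 1128 and 938 in untreated HNF4G cells, against 102 and 105 in treated and 558 and 511 in untreated GFP cells. It kept 56.3% of its DMSO level in HNF4G cells and 19.4% in GFP cells, an interaction of 1.52 ± 0.22 (limma adjusted p = 0.319). The treated HNF4G libraries and the untreated GFP libraries overlapped in level.

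AKAP12 (chromosome 6, 151239967 to 151358559), a scaffold for protein kinase A, differed in kind from the genes above. It stood at 1855 and 1524 normalized counts in treated HNF4G cells, 569 and 669 in untreated HNF4G cells, 502 and 508 in treated GFP cells, and 429.7 and 488 in untreated GFP cells. AKAP12 rose with ABBV-075 in HNF4G cells, by a log2 change of 1.44 ± 0.14, while the change in GFP cells was 0.14 ± 0.14 and not called. Its interaction was 1.30 ± 0.20 (limma adjusted p = 0.391). DESeq2 called the interaction of DHRS3 and AKAP12 as well.

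HHLA2 (chromosome 3, 108296529 to 108378285), a ligand of the B7 family that acts on T cells, was nearly silent in treated GFP cells. It had 102 and 102 normalized counts in treated HNF4G cells, 184 and 179.8 in untreated HNF4G cells, 2.20 and 4.61 in treated GFP cells, and 37.7 and 34.3 in untreated GFP cells. The GFP-ABBV-075 values rest on 2 and 4 reads, so the interaction of 2.29 ± 0.40 depends on the pseudocount and came to 1.17 with a pseudocount of 8. No tool called it (limma adjusted p = 0.568).

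**Figure D2:**
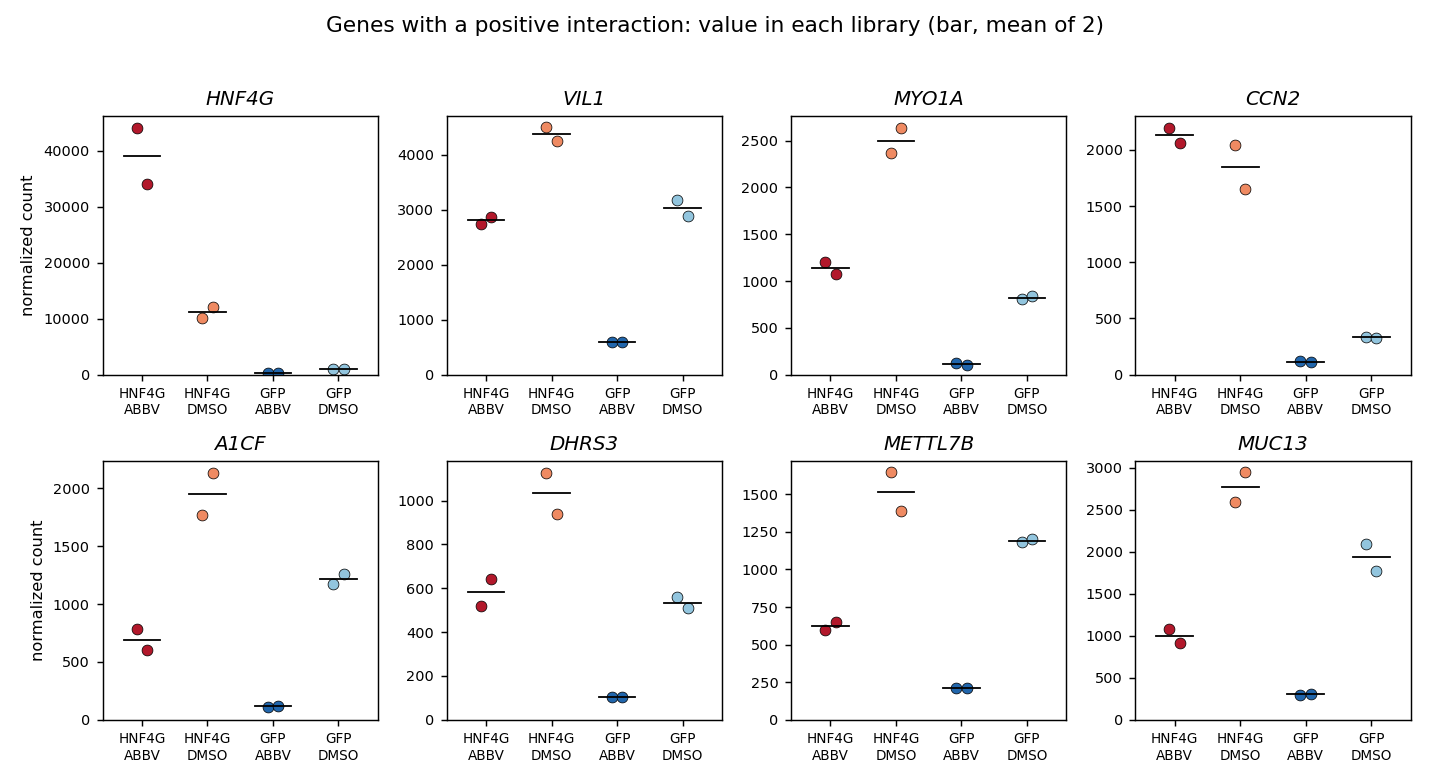
Normalized count (vertical axis, from 0) of 8 genes in each of the 8 libraries, 1 panel for each gene, with the groups HNF4G-ABBV-075, HNF4G-DMSO, GFP-ABBV-075 and GFP-DMSO from left to right. Points are libraries and the bar is the mean of 2. In VIL1 the treated HNF4G cells sit at 2747 and 2874, near the untreated GFP cells, while the treated GFP cells sit at 589 and 593.

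The HNF signature is the study's list of HNF genes and their targets, picked by binding and by the response to knockdown or overexpression of the factors in 22Rv1 and LNCaP cells. HNF4G itself was set aside, which left 10 genes, all tested. All 10 fell with ABBV-075 in HNF4G cells and all 10 fell in GFP cells, with median log2 changes of -1.40 and -2.56. The interaction was positive for 9 and negative for 1, against 9459 and 8417 of all 17876 genes. The median was 0.68, against 0.01 over all genes. Limma called 0 of the 10, and 7 were positive and 1 negative at an unadjusted p under 0.05, where all genes had 1.42% and 1.11%. DESeq2 and the correction for GC content each called 3 as positive, where over all 17876 genes they called 10 and 16. Without both libraries of low GC content the median was 0.77, against -0.01 over all genes.

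CLRN3, a membrane protein of the clarin family, had the largest fitted interaction among the members described here. Its values were 95.1 and 103 in treated and 227 and 275 in untreated HNF4G cells, against 1.10 and 3.46 in treated and 50.3 and 39.4 in untreated GFP cells. Only 1 and 3 reads lay behind the GFP-ABBV-075 values. Treated HNF4G cells held 221% of the GFP-DMSO level, and the interaction was 2.57 ± 0.49 (95% interval 1.43 to 3.71, limma adjusted p = 0.745). With a pseudocount of 8 it came to 1.09. Limma called it only without both libraries of low GC content.

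METTL7B, a methyltransferase of the endoplasmic reticulum and lipid droplets, had 596 and 651 normalized counts in treated HNF4G cells, 1647 and 1388 in untreated HNF4G cells, 209 and 215 in treated GFP cells, and 1183 and 1202 in untreated GFP cells. It kept 41.1% of its DMSO level in HNF4G cells and 17.8% in GFP cells (interaction 1.21 ± 0.17, limma adjusted p = 0.319). MUC13, a transmembrane mucin of the gut, had 1087 and 913 in treated and 2599.6 and 2946 in untreated HNF4G cells, against 296 and 313 in treated and 2096 and 1769.8 in untreated GFP cells. It kept 36.1% and 15.8% in the same lines (interaction 1.18 ± 0.20, limma adjusted p = 0.523). In both genes treated HNF4G cells stayed below the untreated cells of either line, and DESeq2 called both.

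AKR1C3, a reductase that converts androgen precursors, had 2371 and 2148 normalized counts in treated HNF4G cells, 5057 and 5133 in untreated HNF4G cells, 627 and 666 in treated GFP cells, and 2613 and 2427 in untreated GFP cells. It kept 44.3% of its DMSO level in HNF4G cells and 25.6% in GFP cells, an interaction of 0.79 ± 0.14 (limma adjusted p = 0.627). AKR1C3 shares sequence with AKR1C1 and AKR1C2, and how the counting split reads between such copies was not given, which also holds for UGT2B15 and its relatives and for KLK2 and KLK3. The kinase gene SGK2 had an interaction of 0.57 ± 0.23 and the ribonuclease gene ANG one of 0.51 ± 0.19, both at an unadjusted limma p under 0.05. GAS2, a gene of the actin cytoskeleton, stood at 0.27 ± 0.22, with a 95% interval that held 0.

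UGT2B15 and APOH had no positive interaction of note. UGT2B15, which glucuronidates androgens, had 758 and 625 normalized counts in treated HNF4G cells, 4334 and 5189.9 in untreated HNF4G cells, 161 and 158 in treated GFP cells, and 1074 and 1169 in untreated GFP cells. HNF4G cells were higher both under ABBV-075, 4.34-fold, and under DMSO, 4.25-fold, and 14.5% and 14.2% of the DMSO level were left in HNF4G and in GFP cells. The interaction was 0.02 ± 0.20 (95% interval -0.44 to 0.48). APOH, the plasma protein beta-2-glycoprotein I, had 90.3 and 80.3 in treated and 482 and 552 in untreated HNF4G cells, against 24.2 and 46.1 in treated and 105 and 84.9 in untreated GFP cells. Here 16.5% of the DMSO level was left in HNF4G cells and 37.2% in GFP cells, an interaction of -1.12 ± 0.40 that was not called (95% interval -2.05 to -0.19). Treated HNF4G cells were near the untreated GFP cells in APOH, at 90.1% of their mean.

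**Figure D3:**
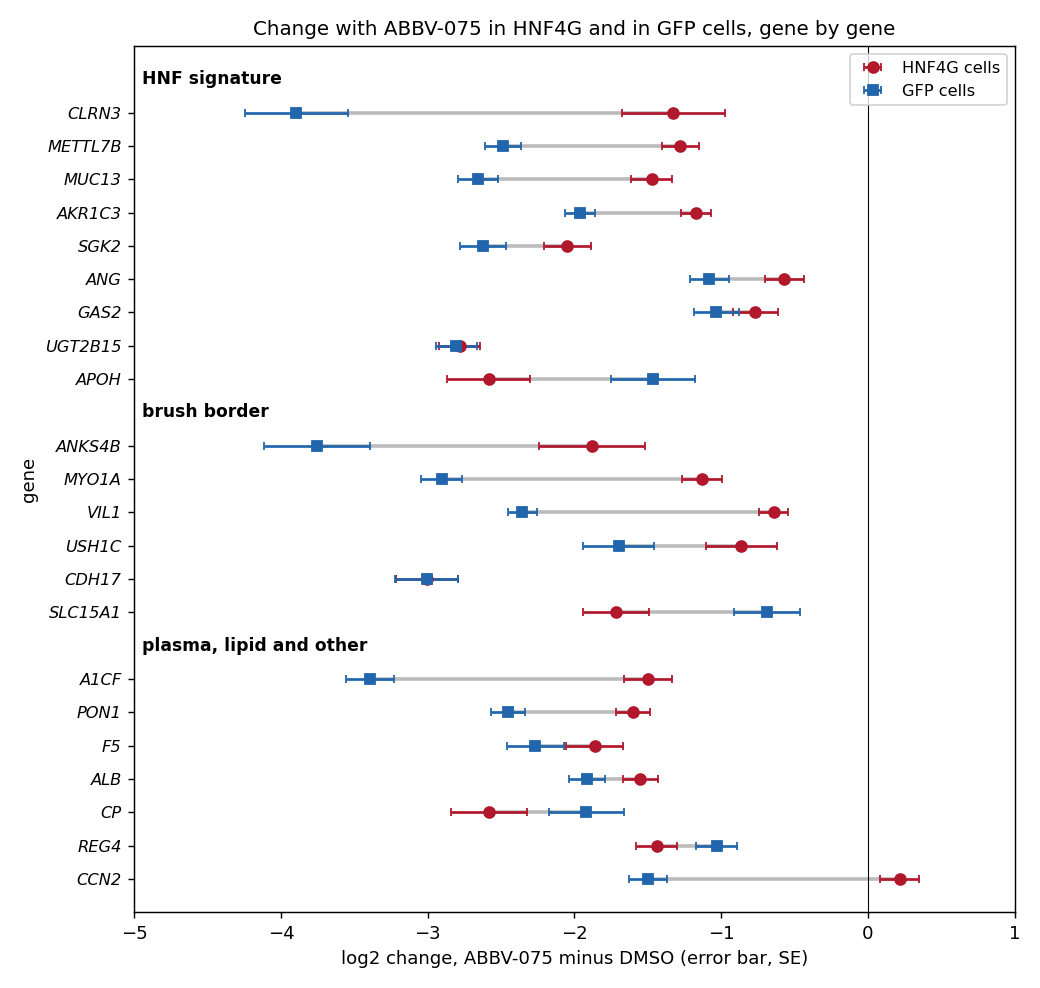
Log2 change with ABBV-075 against DMSO (horizontal axis, error bars are SE) for 22 genes, HNF4G cells as red circles and GFP cells as blue squares. A red circle to the right of its blue square means a positive interaction. The markers are far apart for CLRN3, VIL1 and CCN2, coincide for UGT2B15 and CDH17, and are in the opposite order for APOH and SLC15A1.

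The promoters of 28 genes were searched for the letters CAAAGTCCA, an element that HNF4 proteins bind. The looser form CAAAGNNCA, which includes it, was also searched, and each form on both strands. Genes of negative interaction named further below were among the 28. RefSeq windows (GRCh38.p14) of 250 bases before to 50 after a start were used, and 24 of 28 genes matched, with 42 windows. HNF4G, VIL1, SGK2 and RALYL had no entry in the table. The first form was in 2 of the 42 windows, of MYO1A and of MUC13, and in 0.384% of all 35116 windows. The looser form was in 5, of MYO1A, MUC13, CLRN3, DHRS3 and GAS2, and in 5.28% of all windows. A match is a description of letters and not a bound site. The windows of MYO1A and MUC13, which hold the first form, and of CLRN3 are shown, picked after their values were seen, with UGT2B15 beside them as a gene that kept close to the same share in both lines. Capitals mark CAAAGNNCA or its reverse complement. All 4 lie on the minus strand and are written 5′ to 3′ along the gene, at chr12:57050080-57050379, chr3:124934702-124935001, chr10:127892892-127893191 and chr4:68670603-68670902 in the order given.
MYO1A: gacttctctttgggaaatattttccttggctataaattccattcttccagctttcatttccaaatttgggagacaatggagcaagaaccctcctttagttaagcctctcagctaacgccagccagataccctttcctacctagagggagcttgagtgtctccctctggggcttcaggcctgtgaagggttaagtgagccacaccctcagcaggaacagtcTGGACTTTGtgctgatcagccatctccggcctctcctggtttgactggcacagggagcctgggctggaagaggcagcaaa
MUC13: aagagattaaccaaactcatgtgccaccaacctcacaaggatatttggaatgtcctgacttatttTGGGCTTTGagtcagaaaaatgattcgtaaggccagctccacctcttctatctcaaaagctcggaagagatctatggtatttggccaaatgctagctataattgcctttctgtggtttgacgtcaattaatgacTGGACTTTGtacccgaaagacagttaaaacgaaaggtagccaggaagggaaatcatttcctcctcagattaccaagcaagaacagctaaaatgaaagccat
CLRN3: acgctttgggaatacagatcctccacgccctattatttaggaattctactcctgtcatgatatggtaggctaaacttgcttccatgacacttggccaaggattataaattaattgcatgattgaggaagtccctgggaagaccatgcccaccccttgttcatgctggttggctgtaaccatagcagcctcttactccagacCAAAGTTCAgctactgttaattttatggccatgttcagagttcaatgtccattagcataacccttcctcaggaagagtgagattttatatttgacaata
UGT2B15: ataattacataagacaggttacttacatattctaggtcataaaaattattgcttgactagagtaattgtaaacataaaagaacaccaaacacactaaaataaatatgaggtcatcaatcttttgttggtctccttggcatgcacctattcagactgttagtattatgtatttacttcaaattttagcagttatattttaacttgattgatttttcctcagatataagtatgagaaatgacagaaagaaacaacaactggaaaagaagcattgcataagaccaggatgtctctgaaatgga
In MYO1A the element ended 22 bases and in MUC13 43 bases before the start, in both cases as TGGACTTTG. UGT2B15 and the windows of CCN2, A1CF, METTL7B and AKAP12 did not hold these letters. The TEAD letters CATTCCA were in 2 of the 42 windows, of DHRS3 and MUC13, and in 4.18% of all windows. The window of CCN2 did not hold them, and other spellings of a TEAD site were not searched.

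Genes of brush border structure were split. Of 15 tested, 11 had a positive interaction, where 9459 of all 17876 genes did, with a median of 0.15. Among these 11, 4 were at an unadjusted p under 0.05. They were VIL1, MYO1A, ANKS4B and USH1C, of which limma called VIL1. USH1C encodes harmonin and ANKS4B a scaffold that binds it, in the links between microvillus tips. USH1C, picked after its values were seen like ANKS4B and CDH17, had 143 and 165 in treated and 289 and 271 in untreated HNF4G cells, against 14.3 and 24.2 in treated and 61.9 and 63.6 in untreated GFP cells (interaction 0.84 ± 0.34). ANKS4B had 67.0 and 63.8 in treated and 229.8 and 258 in untreated HNF4G cells, against 0 and 1.15 in treated and 18.4 and 19.2 in untreated GFP cells, where the values of treated GFP cells rest on 0 and 1 read, and an interaction of 1.87 ± 0.51 with a pseudocount of 1. With a pseudocount of 8 its sign turned, to -0.13, and edgeR and DESeq2 gave 2.89 and 3.15, so no direction is read from it. The positive members of the list numbered 8 of 15 at that pseudocount and 9 without both libraries of low GC content. CDH17, an intestinal cadherin, went like UGT2B15, with 131 and 88.5 in treated and 820.3 and 926 in untreated HNF4G cells, against 26.4 and 20.8 in treated and 194 and 197 in untreated GFP cells. It kept 12.6% of its DMSO level in HNF4G cells and 12.1% in GFP cells, an interaction of 0.00 ± 0.30 (95% interval -0.70 to 0.70). CDH17 was 4.65-fold higher in HNF4G than in GFP cells under ABBV-075 and 4.47-fold under DMSO.

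The enzymes and transporters of the brush border did not follow VIL1 and MYO1A. Of 11 tested, 10 fell with ABBV-075 in HNF4G cells and 9 in GFP cells, and the median interaction was 0.00. Limma, edgeR and DESeq2 called 0, and limma had 1 negative at an unadjusted p under 0.05. The peptide transporter SLC15A1 had the lowest unadjusted p, in the negative direction, with 34.0 and 32.9 in treated and 115 and 109 in untreated HNF4G cells, against 12.1 and 10.4 in treated and 20.3 and 17.2 in untreated GFP cells (interaction -1.03 ± 0.32). The 7 tested mucins and secreted gut products had a median of -0.41, with 5 negative. Limma, edgeR and DESeq2 called 0, with 1 negative at an unadjusted p under 0.05 in each. Without both libraries of low GC content the median was -0.44. REG4, a lectin of the gut epithelium, was higher in HNF4G cells under both treatments and had an interaction of -0.41 ± 0.20.

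Plasma proteins of the liver gave 6 positive and 8 negative interactions among 14 tested, with a median of -0.07. Limma, edgeR and DESeq2 called 0, and 0 reached an unadjusted p under 0.05 in any of these. Without both libraries of low GC content 4 were positive and 10 negative, where 8674 and 9202 of all 17876 genes were. F5, coagulation factor V, averaged 147 ± 24.3 normalized counts in treated and 533 ± 32.3 in untreated HNF4G cells, against 17.4 ± 3.42 in treated and 86.9 ± 2.95 in untreated GFP cells (SD, n = 2 each), with no overlap between groups. HNF4G cells held 8.43 times the F5 of GFP cells under ABBV-075 and 6.13 times under DMSO, and the interaction was 0.41 ± 0.27 (95% interval -0.23 to 1.04). The interaction of F5 was 0.10 with a pseudocount of 8 and ran from 0.22 to 0.60 on leaving out 1 library. Treated HNF4G cells stood at 169% of the GFP-DMSO mean although F5 fell in both lines. Ceruloplasmin (CP) in treated HNF4G cells also stood above the GFP-DMSO mean, at 144%. Its interaction had the opposite sign to that of F5, at -0.66 ± 0.36, and was -0.94 with a pseudocount of 8. Albumin (ALB) had 9822 and 8155 in treated and 24079 and 28575 in untreated HNF4G cells, against 3161 and 3102 in treated and 12208 and 11418 in untreated GFP cells and an interaction of 0.36 ± 0.17.

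Of 32 tested genes of steroid and xenobiotic metabolism, 18 fell in HNF4G cells and 16 in GFP cells. The median interaction was 0.04, with 5 positive at an unadjusted p under 0.05, and limma, edgeR and DESeq2 called 0. Limma called 2 as positive, AKR1C3 and PON1, with the GC and length correction, where over all 17876 genes it called 16. Without both libraries of low GC content the median was -0.04. PON1, an esterase carried on high-density lipoprotein, had 1157 and 1009 normalized counts in treated HNF4G cells, 3126 and 3451 in untreated HNF4G cells, 359 and 383 in treated GFP cells, and 2029 and 2036 in untreated GFP cells. It kept 32.9% of its DMSO level in HNF4G cells and 18.3% in GFP cells. The interaction was 0.85 ± 0.16 (limma adjusted p = 0.745, or 0.0055 with the GC and length correction), called in 3 of 24 alternatives. Without both libraries of low GC content it was 0.82. The retinaldehyde dehydrogenase ALDH1A1, picked after its values were seen, rose in HNF4G cells, with 5201 and 4314 in treated and 2933 and 3019 in untreated HNF4G cells, against 1020.2 and 964 in treated and 851 and 926 in untreated GFP cells (interaction 0.51 ± 0.17). Apolipoproteins and factors of lipoprotein assembly had a median of 0.44 over 13 genes, 2 positive at an unadjusted p under 0.05, with A1CF and APOM. That median was 0.20 with the GC and length correction and 0.72 without both libraries of low GC content.

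Among transcription factors of gut and liver, limma called the interaction of HNF4G and of no other. The HNF4G reads include the transgene, so that call is no result about the endogenous gene. Of 13 tested, HNF4G included, 5 were positive and 8 negative, with a median of -0.07. HNF4A, the close relative of HNF4G, picked after its values were seen, was nearly lost in both lines, with 4.85 and 7.20 in treated and 101 and 84.7 in untreated HNF4G cells, against 0 and 1.15 in treated and 18.4 and 13.1 in untreated GFP cells. Reads behind its 4 treated libraries numbered 5, 7, 0 and 1 in that order. Its interaction was -0.26 ± 0.65, with a 95% interval of -1.75 to 1.24, and its sign depended on the method, at 0.62 with edgeR, 0.85 with DESeq2 and -1.38 with a pseudocount of 8.

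Of 22 tested YAP and TEAD targets, 19 had a positive interaction, where 9459 of all 17876 genes did. The median was 0.24, against 0.01 over all genes, and limma called 0. DESeq2, and limma with the GC correction, called 1, CCN2. Only CCN2 and AMOTL1 reached an unadjusted p under 0.05 in limma over all libraries. NT5E, an ectonucleotidase picked after its values were seen, was higher in HNF4G cells under both treatments, with 818 and 677 in treated and 685 and 881 in untreated HNF4G cells, against 111 and 134 in treated and 168 and 165 in untreated GFP cells, and had an interaction of 0.38 ± 0.24. CCN1, the closest relative of CCN2, stood at -0.34 ± 0.20.

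**Figure D4:**
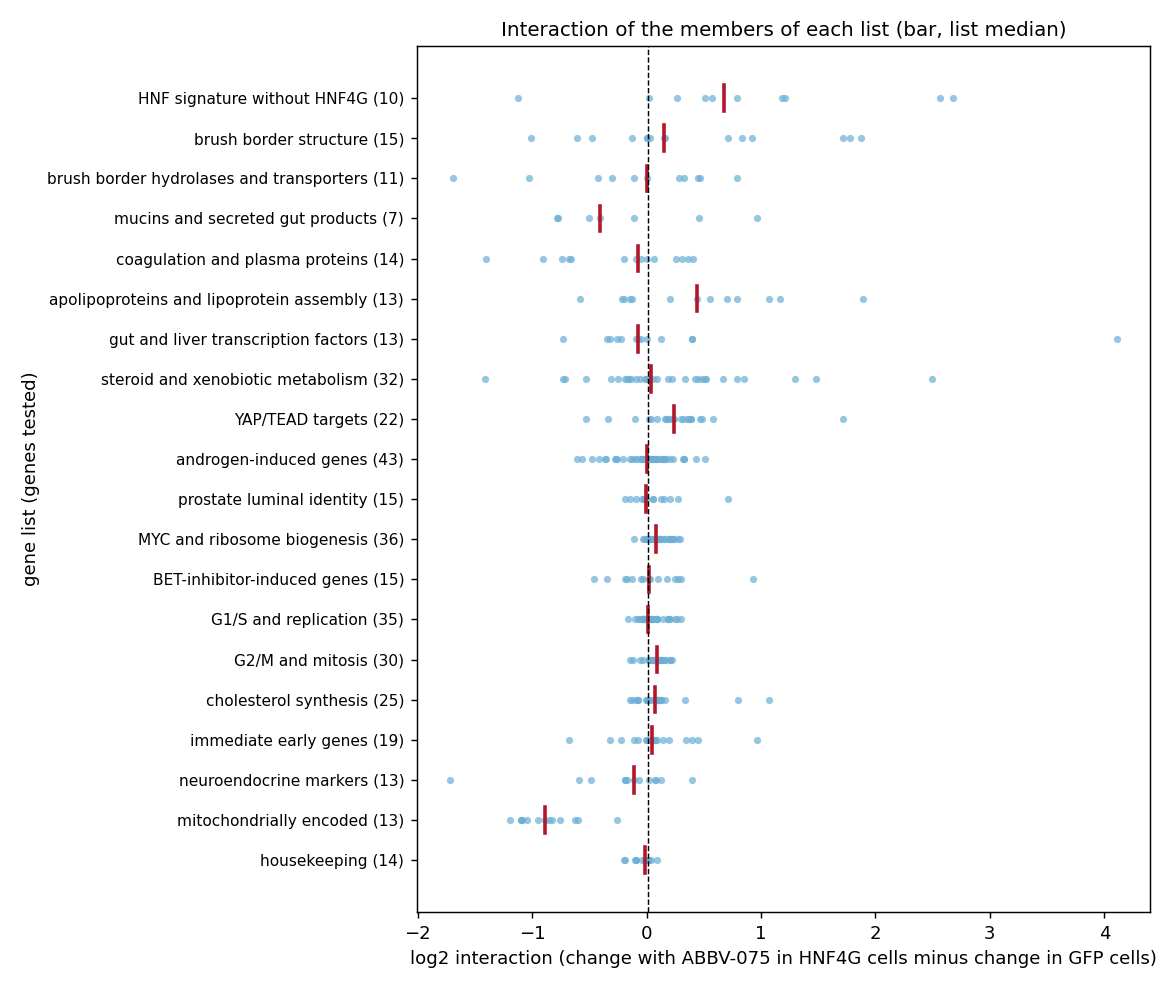
Log2 interaction (horizontal axis) of every tested member of 20 gene lists (rows, with the number of genes tested), 1 point for each gene. Red bars are list medians, and the dashed line is the median over all genes, 0.01. The HNF signature has its median at 0.68 with 9 of 10 genes above 0. The MYC list lies in a narrow band with 32 of 36 genes above 0, and the mitochondrially encoded mRNAs all lie below 0.

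Genes that lost more to the inhibitor in HNF4G cells, or gained less, were not called by limma, edgeR or DESeq2. The 10 of smallest unadjusted p among those whose mean reached 50 normalized counts are described as values only. They were PEAK1, EFNB2, CD24, AGR2, RALYL, SERPINE2, SERPINB5, PGC, APLN and TMEM45A, with interactions of -1.76 to -0.45. Limma after the GC correction called EFNB2 and CD24, and limma without both libraries of low GC content called EFNB2, CD24, AGR2 and APLN.

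EFNB2, PEAK1 and SERPINE2 rose with ABBV-075 in GFP cells and were already higher in HNF4G than in GFP cells under DMSO. EFNB2, a ligand of Eph receptors, had 1559 and 1471 normalized counts in treated HNF4G cells, 1289 and 1330.1 in untreated HNF4G cells, 1096 and 965 in treated GFP cells, and 494 and 467 in untreated GFP cells. Its log2 change was 0.21 ± 0.11 in HNF4G cells, which was not called, and 1.10 ± 0.11 in GFP cells (interaction -0.89 ± 0.16, limma adjusted p = 0.568). PEAK1, a pseudokinase of the cytoskeleton, had 67.9 and 57.6 in treated and 60.1 and 76.1 in untreated HNF4G cells, against 54.0 and 55.4 in treated and 15.5 and 18.2 in untreated GFP cells. Its log2 change was -0.11 ± 0.22 in HNF4G cells, which was not called, and 1.65 ± 0.22 in GFP cells (interaction -1.76 ± 0.31, limma adjusted p = 0.568). SERPINE2, a protease inhibitor, rose in both lines, with 690.1 and 713 in treated and 395 and 403 in untreated HNF4G cells, against 592 and 603 in treated and 210.0 and 223 in untreated GFP cells (interaction -0.65 ± 0.16).

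For SERPINB5, CD24 and AGR2 the untreated HNF4G libraries were the highest of all 8. SERPINB5, the serpin maspin, had 104 and 94.7 normalized counts in treated HNF4G cells, 278 and 353 in untreated HNF4G cells, 43.0 and 61.1 in treated GFP cells, and 70.6 and 68.7 in untreated GFP cells. It fell in HNF4G cells, a log2 change of -1.65 ± 0.21, and the change of -0.44 ± 0.21 in GFP cells was not called (interaction -1.21 ± 0.30). CD24, a surface glycoprotein, had 1417 and 1289.6 in treated and 2652 and 2853 in untreated HNF4G cells, against 1589 and 1566 in treated and 1998 and 2074 in untreated GFP cells, and kept 49.2% of its DMSO level in HNF4G cells and 77.5% in GFP cells (interaction -0.66 ± 0.14). AGR2, which helps mucins to fold, had 710.5 and 574 in treated and 804 and 815 in untreated HNF4G cells, against 750.3 and 723 in treated and 530.3 and 557 in untreated GFP cells. The change of AGR2 was -0.34 ± 0.13 in HNF4G cells, not called, and 0.44 ± 0.13 in GFP cells, where it rose (interaction -0.78 ± 0.18).

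PGC and APLN rose with ABBV-075 in GFP cells, and limma called no change of either in HNF4G cells. Pepsinogen C (PGC) had 87.4 and 98.8 normalized counts in treated HNF4G cells, 113 and 95.9 in untreated HNF4G cells, 197 and 187 in treated GFP cells, and 120.0 and 103 in untreated GFP cells. The treated GFP libraries stood above all others, and the interaction was -0.95 ± 0.24. APLN, the peptide hormone apelin, had 45773 and 49684 in treated and 46960 and 43088 in untreated HNF4G cells, against 72404 and 73370 in treated and 51869 and 48720 in untreated GFP cells, with an interaction of -0.45 ± 0.11.

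**Figure D5:**
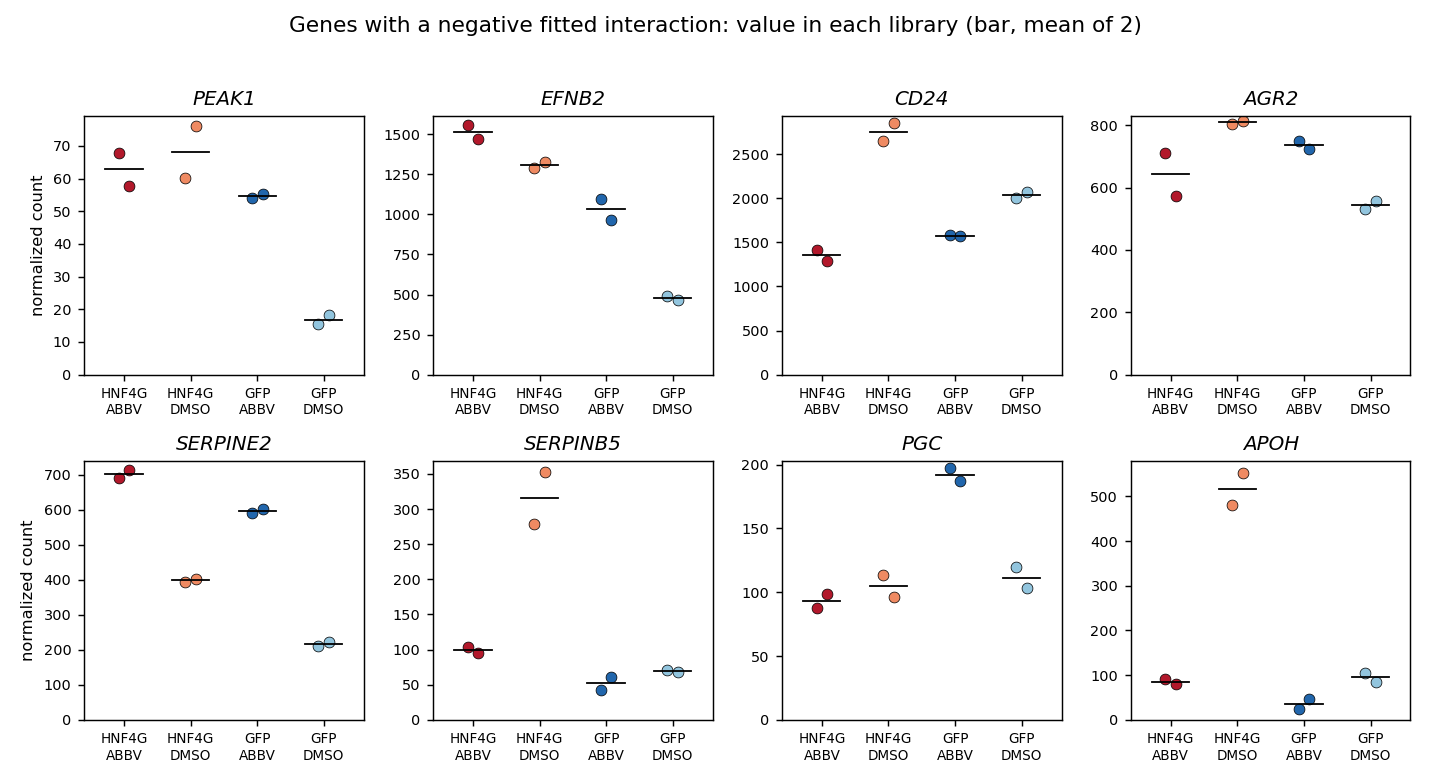
Normalized count (vertical axis, from 0) of 8 genes with a negative fitted interaction in each of the 8 libraries, 1 panel for each gene, with the groups HNF4G-ABBV-075, HNF4G-DMSO, GFP-ABBV-075 and GFP-DMSO from left to right. Points are libraries and the bar is the mean of 2. EFNB2 and PEAK1 are low only in the untreated GFP libraries, and PGC is high only in the treated GFP libraries. None of these interactions was called by limma.

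MYC, whose transcription BET inhibitors are known to reduce, fell in both lines, and HEXIM1, which they are known to induce, rose in both. MYC had 1258 and 1475 normalized counts in treated HNF4G cells, 8252 and 6529 in untreated HNF4G cells, 1423 and 1365 in treated GFP cells, and 9009 and 8176 in untreated GFP cells. It kept 18.5% of its DMSO level in HNF4G cells and 16.2% in GFP cells (interaction 0.19 ± 0.20, 95% interval -0.26 to 0.64). HEXIM1, which holds the P-TEFb kinase inactive, rose by 1.90 ± 0.14 in HNF4G cells and by 1.80 ± 0.14 in GFP cells (interaction 0.10 ± 0.19). Of 36 tested genes of MYC and ribosome biogenesis, 28 fell in HNF4G cells and 31 in GFP cells. The interaction was positive for 32, where it was for 9459 of all 17876 genes. The list median was 0.08, against 0.01 over all genes, with a range of -0.11 to 0.29. Limma called 0 of these interactions, with 0 at an unadjusted p under 0.05, as did edgeR and DESeq2. Without both libraries of low GC content 28 were positive, with a median of 0.07. Of 15 genes commonly induced by BET inhibitors, 14 rose in each line, with a median interaction of 0.02.

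Androgen-induced genes had 22 positive and 21 negative interactions among 43 tested, with a median of 0.01. Limma called 0, with 1 positive and 4 negative at an unadjusted p under 0.05, and edgeR and DESeq2 called 0. Without both libraries of low GC content the median was -0.03, against -0.01 over all genes. KLK3, which encodes prostate-specific antigen, had 46.6 and 60.7 normalized counts in treated HNF4G cells, 457 and 414 in untreated HNF4G cells, 283 and 293 in treated GFP cells, and 1711 and 1359 in untreated GFP cells. It was lower in HNF4G cells under both treatments, a contrast in which limma called 60 genes lower under ABBV-075 (0.336%) and 21 under DMSO (0.117%), beside 293 (1.64%) and 140 (0.783%) higher. KLK3 kept 12.3% of its DMSO level in HNF4G cells and 18.8% in GFP cells (interaction -0.61 ± 0.24, 95% interval -1.17 to -0.04, not called by limma). Its neighbour KLK2, of the same kallikrein family, had an interaction of -0.35 ± 0.15. TMPRSS2, a membrane protease, went the other way, with 1393 and 1432 in treated and 1951 and 1932 in untreated HNF4G cells, against 708 and 661 in treated and 1305 and 1379 in untreated GFP cells (interaction 0.51 ± 0.14, called by limma only without both libraries of low GC content).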

How the data were processed

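RNA-seq measured poly-A RNA of 22Rv1 cells in 8 libraries, whose labels gave transgene and treatment. According to the study's methods, the authors had aligned reads to hg38 with STAR (2.6 in the submitters' processing notes, while the methods name another version). The gene counter, its strand setting and the annotation release are not given in the sources used here. Expression as log2 TPM is named in the methods, and the deposited values are not that. They are a signal the authors deposited as normalized counts, in which reads are scaled by a size factor of the library and not by gene length. Each value was a whole multiple of 1 step per library, so whole reads were recovered (100% of values above 0 within 0.01 of a whole number).

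The table held 57605 entries, of which 2 repeats were dropped. Log2(normalized count + 1) of the 17876 genes with a mean of at least 10 was fitted with limma 3.58.1 (R 4.3.3, intensity trend) as 4 group means over 8 libraries, and the interaction was tested two-sided with Benjamini-Hochberg adjustment (calls at an adjusted p under 0.05). Drug and line contrasts came from the same fit. The log2 scale understates changes of low genes. Intervals are 95% and unadjusted. edgeR 4.0.16 and DESeq2 1.42.0 were run on the recovered reads. Other alternatives were pseudocounts, filters, rescalings, a replicate block, a GC and length correction (GENCODE 44), variance models and left-out libraries. Tests were checked on simulated data with interactions larger than most described here, 1 dispersion for all genes and no GC difference between libraries. That check does not cover smaller interactions or the GC difference seen here.

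Members and lists were chosen with earlier results of these data known. Named were a fixed set of genes, genes called at a mean of 50 or more, filled to 10 in each direction by smallest unadjusted p, and up to 2 genes in each direction per list, of which those with bearing on the text are given. Others are marked as picked after their values were seen. Results for some genes are not reported singly. In these libraries the study singled out CCN2, VIL1 and CLRN3, and also showed F5 and MUC13. It compared the change of its HNF signature genes between the lines as well. The values of these genes and of the signature are therefore no independent evidence. A promoter was to be shown for called genes, and none outside chromosome 8 had an entry in the RefSeq table, so the promoters shown were picked afterwards.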

Additional observations from a re-analysis of the deposited data

Results flagged for a closer look

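The change with ABBV-075 differed between HNF4G and GFP cells by limma's test of the difference itself for 2 genes. The log2 interaction was 4.11 for HNF4G, whose reads include the transgene, and 1.71 for VIL1. Both were positive in each of the 24 alternatives, and HNF4G was called in all 24 and VIL1 in 15. No other result met a rule for a closer look, and groups of 2 libraries are too small for a test of single libraries.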

How the results depend on the processing

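The count of positive calls, 2, stood at 2 with pseudocounts of 0.5 and 8, without a filter, with a mean of at least 100, under all 3 rescalings, with robust limma and with edgeR. It was 10 with DESeq2, 1 without the intensity trend, 16 with the GC and length correction, and 320 without both libraries of low GC content, where negative calls numbered 44. The GC correction gave 2 negative calls, and negative calls were 0 under every other alternative. Leaving out 1 library at a time gave 1 to 3 positive and 0 negative calls. Of 3237 values of 136 named genes under the alternatives, 3119 kept their call or, without one, lay within 1 SE, 54 moved further without a call, 55 gained a call, 9 lost one (all VIL1) and 0 reversed a call, and 114 genes kept their sign throughout. The causes were not tested. Whether replicate numbers pair the samples is not stated in the labels. Between groups, libraries of the same number deviated with a correlation of -0.59 to 0.13. The value of -0.59 was between the HNF4G groups, whose libraries of low GC content carry different numbers, so these correlations cannot decide the pairing. With the replicate number as a block there was 1 positive call, HNF4G, and 9 with the GC correction too, and VIL1 was called in neither. With the numbers of HNF4G-ABBV-075 exchanged, chosen after seeing the data because of the value of -0.59, there were 4. With 2 libraries a group and 4 residual degrees of freedom, the median 95% half-width was 0.56 on the log2 scale, before adjustment. Smaller interactions were mostly not detectable, and larger ones also went uncalled by limma, such as 1.78 for MYO1A and 1.18 for MUC13.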

Other observations

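Genes of the cell cycle had small interactions. Of 35 tested genes of G1/S and replication, 21 fell with ABBV-075 in HNF4G cells and 22 in GFP cells, and their median interaction was 0.01. The 30 genes of G2/M and mitosis had a median of 0.09, against 0.01 over all genes, and interactions of -0.15 to 0.23. Of them 26 were positive, where 9459 of all 17876 genes were. Without both libraries of low GC content 20 were positive and the median was 0.03. Immediate early genes rose in both lines, 13 of 19 in HNF4G cells and 11 in GFP cells, with a median interaction of 0.05. In each of these lists 0 genes were called for the interaction by limma, and 0 reached an unadjusted p under 0.05. With both libraries of low GC content left out, the medians of the G1/S and immediate early lists were 0.01 and 0.05.

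All 13 mitochondrially encoded mRNAs had a negative interaction, with a median of -0.89. Limma called 0, with 3 at an unadjusted p under 0.05. The mitochondrial ribosomal RNAs MT-RNR1 and MT-RNR2 stood at -0.42 and -0.23. MT-CO2, a subunit of cytochrome c oxidase, had an interaction of -1.10 ± 0.34. All mitochondrial genes, those of ribosomal and transfer RNAs included, took 2.10% and 1.82% of reads in HNF4G-ABBV-075 and 2.93% and 1.88% in HNF4G-DMSO. They took 3.43% and 3.49% in GFP-ABBV-075, and 3.01% and 1.90% in GFP-DMSO. Without both libraries of low GC content the median interaction of the 13 mRNAs was -1.43, against -0.01 over all genes. The part of library quality in these values was not tested.

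Of 13 tested neuroendocrine markers, 5 had a positive and 8 a negative interaction, with a median of -0.11 and a highest value of 0.40, of ONECUT2. Limma called 0, with 3 negative at an unadjusted p under 0.05, where DESeq2 had 0. PCSK1, a prohormone convertase, had 5.82 and 3.09 normalized counts in treated HNF4G cells, 35.9 and 25.9 in untreated HNF4G cells, 14.3 and 11.5 in treated GFP cells, and 22.3 and 26.3 in untreated GFP cells, an interaction of -1.72 ± 0.51. That value rests on few reads and ran from -2.31 to -1.02 over the alternatives. SCGN, which encodes secretagogin, had 144 and 136 normalized counts in treated HNF4G cells, 296 and 264 in untreated HNF4G cells, 77.1 and 79.6 in treated GFP cells, and 107 and 101 in untreated GFP cells, an interaction of -0.59 ± 0.20. The untreated HNF4G libraries of SCGN were the highest of all 8, and in PCSK1 they overlapped the untreated GFP libraries.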
